A study of Rattus norvegicus with 18 samples.

Results

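Germ cells of rat embryos at embryonic day (E) 12.5 were compared with germ cells at E9.5, 2 ages that bracket the time in which they leave the site where they form and reach the gonads. The comparison used 4 of the 18 libraries of the series, 2 at each age, and the 12432 of 32545 lines of the expression table with at least 1 RPKM in at least 2 of these 4 libraries. RPKM divides the reads of a gene by its length and by the mapped reads of the library. The study profiled epiblast, the pluripotent layer of the early embryo, in 6 libraries and primordial germ cells at 5 ages in 12. All 4 libraries compared were labelled primordial germ cell, strain Crlj:WI (a Wistar stock) and genotype Prdm14-Venus, a fluorescent reporter of the germ cell regulator Prdm14. Sex is not labelled at either age. The labels do not say whether the 2 libraries of an age came from separate embryos or litters, so each p-value reflects how far these libraries differ, and that spread may be technical. RNA was extracted from small inputs and amplified with a SMART-Seq v4 kit, per the labels' protocols.

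Primordial germ cells are the embryonic founders of sperm and eggs. In rodents they are set aside at the posterior edge of the early embryo under bone morphogenetic protein (BMP) signals, silence a somatic mesoderm program, and migrate through the hindgut to the genital ridges. Along the way and there they erase most DNA methylation, and they switch on germ cell genes, among them RNA-binding proteins such as Dazl and Ddx4, the piRNA machinery that silences transposons, and genes used later in meiosis. By what is generally known of rodent embryos, germ cells of the earlier age stand before or early in this migration and those of the later age in the gonad.

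The libraries did not all have the same precision. The table holds no read counts. Judged by how low values of the same genes compared between libraries, the depth of the 4 libraries compared was 100% to 112.1% of that of E12.5 replicate 1, and that of the E10.5 and E11.5 libraries 20.5% to 22.7%. The replicates at E9.5 were less close than those at E12.5, with a median absolute log2 difference of 0.418 against 0.221. Their values differed by at least 1 on the log2 scale in 16.8% of tested genes at E9.5 and in 5.79% at E12.5. A shared estimate of the spread over all 18 libraries can thus be too small for E9.5. The fit on the 4 libraries alone is given beside a call where it ends that call. Some genes that every cell uses were listed near 0 in these libraries, such as Hspa8 at 0 and 0.0156 RPKM at E9.5 and 0.032 and 0.0428 RPKM at E12.5, so a value of 0 is given only as listed. In bulk RNA, fewer cells of a type and less RNA per cell cannot be told apart.

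Of the 12432 genes, 1653 (13.3%) were higher and 1732 (13.9%) were lower at E12.5, in limma with a Benjamini-Hochberg adjusted p under 0.05, on log2(RPKM + 1). The median difference over all tested genes was 0.01. It was 1.43 in the genes called higher and -1.60 in those called lower. A difference of at least 3 on the log2 scale was seen in 176 higher and 230 lower genes. The 4 values did not overlap between the ages in 3384 of the 3385 called genes, which follows largely from the call itself with 2 values per age. Separation by age, where given below for a called gene, is thus a description and no further support. Of all tested genes, 31% were non-overlapping with E12.5 above and 30.4% with E12.5 below. With the 4 libraries alone 2095 of the 3385 calls (16.9% of tested genes) remained. Without E12.5 replicate 1 there were 928 higher and 1053 lower genes, and without E12.5 replicate 2 there were 876 and 1061. The pseudocount of 1 compresses the difference of genes near 0. Unless stated otherwise, a gene described below as higher or lower kept its call in each alternative in which it was tested.

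**Figure D1:**
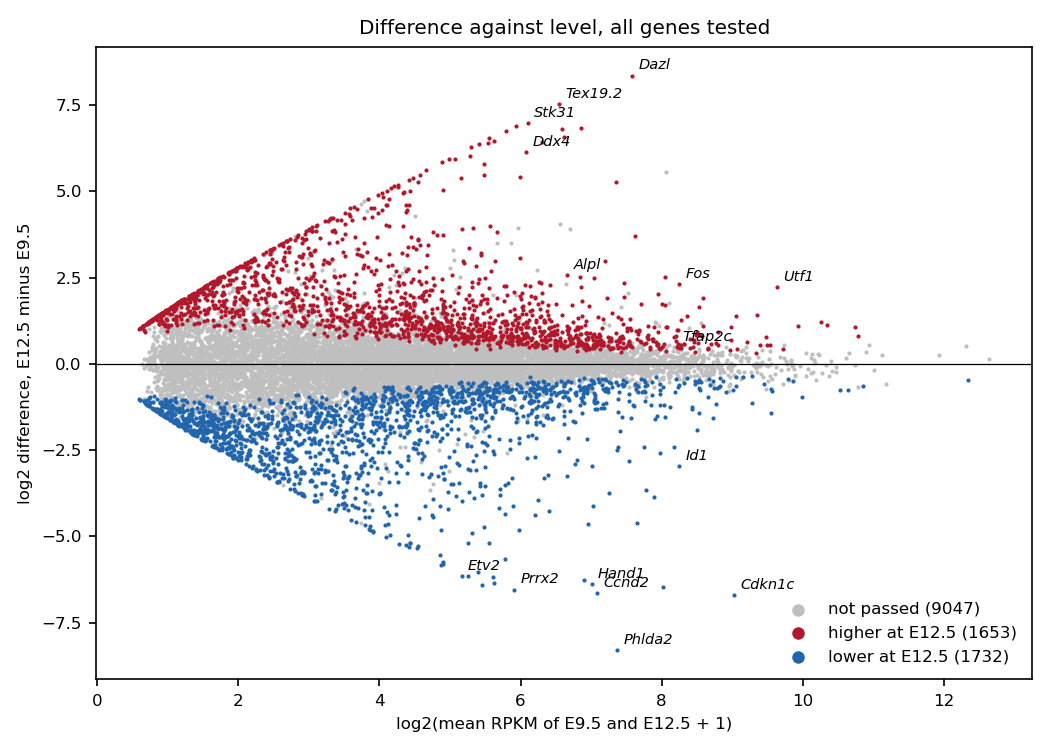
Log2 difference (E12.5 minus E9.5) against log2 of the mean RPKM of both ages, 1 point per tested gene, red for the 1653 genes higher and blue for the 1732 lower at E12.5, grey for the rest. Dazl stands at the top with 8.35 and Phlda2 at the bottom with -8.30, and the straight outer edges are genes near 0 RPKM at 1 age.

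Both genes that mark gonadal germ cells were near 0 at E9.5 and abundant at E12.5. Dazl, which encodes a translational regulator that germ cells need once they reach the gonad, had 0.31 and 0.0451 RPKM at E9.5 and 394 and 369 RPKM at E12.5. Both E12.5 libraries lay far above both E9.5 libraries, and the difference of 8.35 (SE 0.24) was the largest rise of any tested gene (limma adjusted p = 1.22e-09). Ddx4, the germ cell RNA helicase also known as Vasa, rose from 2.46 and 0.0419 RPKM at E9.5 to 139 and 126 RPKM at E12.5. The 2 E9.5 libraries differed from each other, with replicate 1 the higher, but both stayed well under the E12.5 libraries, with a difference of 6.13 (SE 0.47, limma adjusted p = 2.88e-06). The ages between held intermediate values for both. Dazl stood at 7.31 and 12.6 RPKM at E10.5 and 87.2 and 109.9 RPKM at E11.5, and Ddx4 at 9.18 and 7.68 RPKM and then at 23.03 and 35.7 RPKM.

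The list of gonadal germ cell genes and RNA regulators had 21 tested members of 26 in the table. Of these 18 were higher and 2 lower, with a median difference of 3.87 against 0.01 for all tested genes. A gene silent at one age passes the filter only through the other, which fixes the direction of its difference. The counts and medians, here and for each list below, thus cover the measured members and not the list as a whole. For comparison, 13.3% of all tested genes were called higher and 13.9% lower. Stk31, a kinase of germ cell granules, rose from 0.152 and 0.0272 RPKM at E9.5 to 135 and 136 RPKM at E12.5. Its replicates at E12.5 were nearly equal and lay above both E9.5 libraries by 6.97 (SE 0.42, limma adjusted p = 6.7e-07). Sohlh2, a helix-loop-helix transcription factor of early gametogenesis, had 0.0546 and 0 RPKM at E9.5 and 105 and 113 RPKM at E12.5. Tuba3b, an alpha-tubulin with testis expression, rose from 1.64 and 0.554 RPKM at E9.5 to 186 and 199.6 RPKM at E12.5. Both were separated by age without overlap, with differences of 6.74 and 6.58. Tex14, which stabilises the bridges between sister germ cells, had 0.0382 and 0.149 RPKM at E9.5 and 16.8 and 13.2 RPKM at E12.5. The bromodomain gene Brdt, known from spermatogenesis, rose from 1.99 and 4.61 RPKM at E9.5 to 39.8 and 40.96 RPKM at E12.5. The TFIID subunit gene Taf4b, which oocytes need, rose from 13.7 and 13.9 RPKM at E9.5 to 53.8 and 47.7 RPKM at E12.5. Taf4b, with a difference of 1.80, was among the smallest rises of the list, and all 3 were separated by age.

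Some members of that list did not follow. Zfp57, whose product keeps methylation at imprinted loci, had 16.3 and 18.9 RPKM at E9.5 and 1.12 and 0 RPKM at E12.5 with a difference of -3.67 (SE 0.71, limma adjusted p = 0.00234). Ddx25, a helicase of later spermatogenesis, was also lower, at 18.6 and 17.9 RPKM at E9.5 and 6.25 and 5.58 RPKM at E12.5, but lost its call under 7 alternatives. Its limma adjusted p was 0.11 and 0.0875 without E9.5 replicate 1 and 2, and 0.106 and 0.141 without E12.5 replicate 1 and 2. Dazap1, a Dazl partner protein, did not pass at 23.1 and 39.7 RPKM at E9.5 and 36.6 and 47.6 RPKM at E12.5, except without E9.5 replicate 2 (limma adjusted p = 0.0363). Nanos2, which directs the male germ cell program, was listed at 0 and 0 RPKM at E9.5 and 1.27 and 0.987 RPKM at E12.5 and was too low to test. Of the 18 members higher, 15 kept the call in each alternative.

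**Figure D2:**
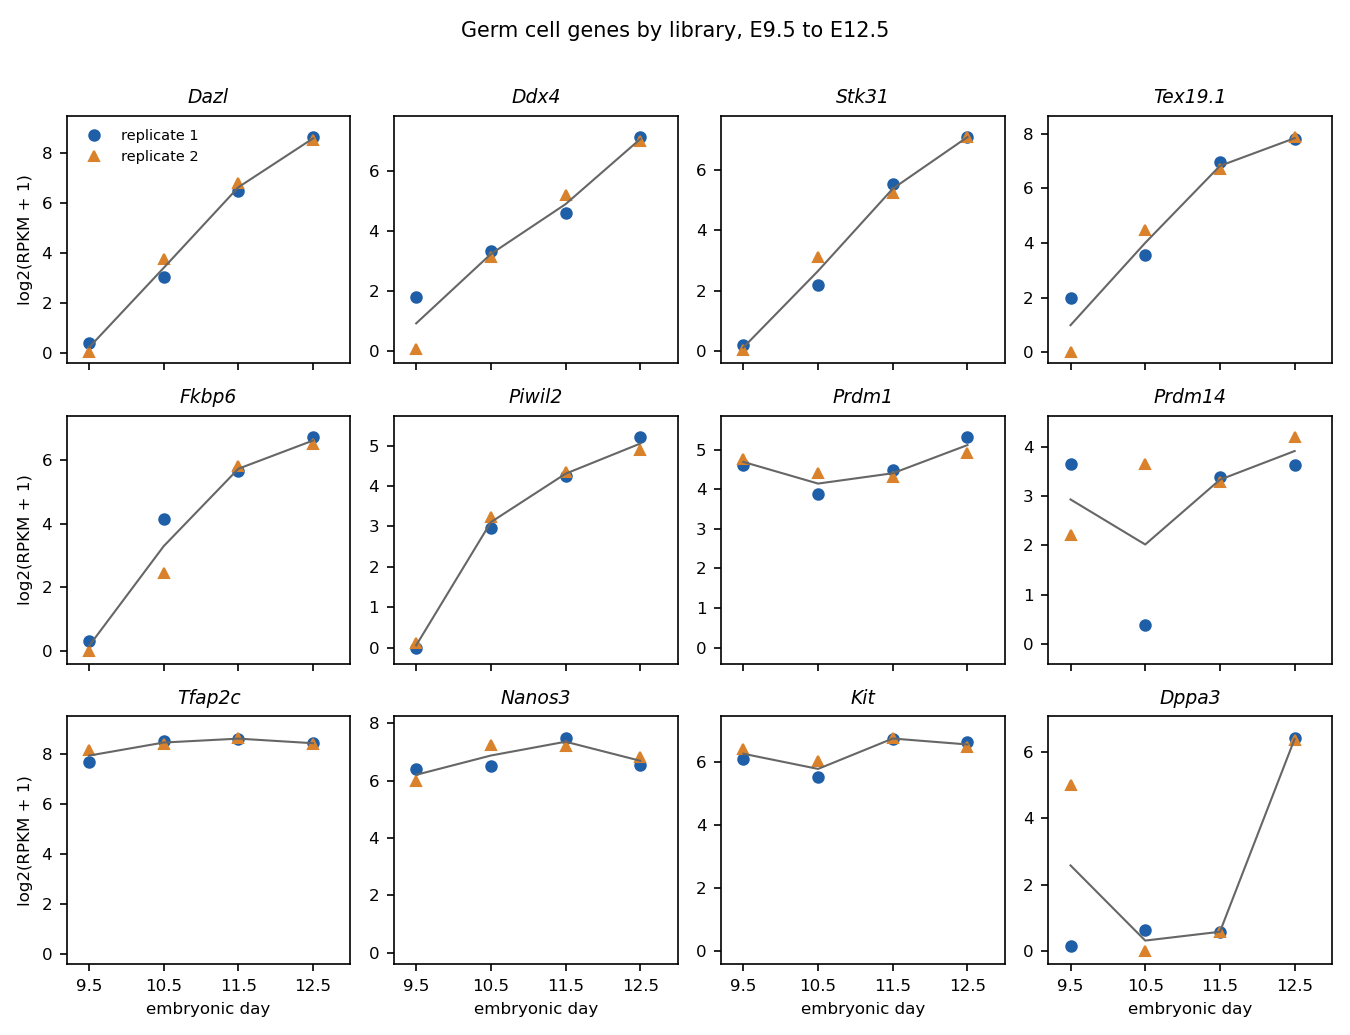
Log2(RPKM + 1) by embryonic day in each library (circles replicate 1, triangles replicate 2, line through the mean), for 6 genes that rise and 6 early germ cell genes. Dazl, Ddx4, Stk31, Tex19.1, Fkbp6 and Piwil2 climb at each age from near 0, Prdm1, Tfap2c, Nanos3 and Kit stay within a narrow band, and 1 E9.5 replicate of Dppa3 stands far from the other.

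The promoters of 7 of the rising genes are shown because E-box and E2F-type motifs are known from mouse germ cell genes, where complexes that bind them keep the genes silent in other cells. The 7 genes and their printed stretches were picked individually and not by a rule. All but Dazl hold the E-box, so they do not show how common it is among rising genes. Shares over more genes are given below. Sequences come from the RefSeq promoter table of build GRCr8, 250 bases before to 50 bases after the annotated start, and only a stretch of the bases before the start is printed, 5′ to 3′ on the gene's strand. Capitals mark CACGTG, the E-box, which reads the same on both strands, and TCCCGC or its reverse complement GCGGGA. Positions count back from the start, with -1 the base before it. The stretch runs from -250 to -1 for Dazl, -250 to -51 for Ddx4, -150 to -51 for Stk31 and Tuba3a and -150 to -1 for Fkbp6 and Tex12. For Mael it covers the 150 bases that start at -250.

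Dazl: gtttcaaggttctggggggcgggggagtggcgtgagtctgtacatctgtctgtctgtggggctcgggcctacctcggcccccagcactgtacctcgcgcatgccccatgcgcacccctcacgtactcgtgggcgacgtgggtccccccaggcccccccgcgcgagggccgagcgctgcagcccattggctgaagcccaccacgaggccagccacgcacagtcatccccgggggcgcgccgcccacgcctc
Ddx4: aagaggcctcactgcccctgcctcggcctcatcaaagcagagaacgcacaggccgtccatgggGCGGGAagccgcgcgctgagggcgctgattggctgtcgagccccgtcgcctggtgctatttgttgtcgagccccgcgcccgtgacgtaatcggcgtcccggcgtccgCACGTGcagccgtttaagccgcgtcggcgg
Stk31: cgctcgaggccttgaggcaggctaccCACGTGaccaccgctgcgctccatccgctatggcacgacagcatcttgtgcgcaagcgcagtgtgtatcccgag
Fkbp6: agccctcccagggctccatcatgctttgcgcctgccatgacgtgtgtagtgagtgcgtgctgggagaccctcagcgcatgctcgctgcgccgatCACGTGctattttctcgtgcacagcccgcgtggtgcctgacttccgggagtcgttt
Tex12: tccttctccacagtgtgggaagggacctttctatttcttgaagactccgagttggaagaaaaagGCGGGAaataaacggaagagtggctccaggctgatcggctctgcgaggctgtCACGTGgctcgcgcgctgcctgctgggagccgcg
Tuba3a: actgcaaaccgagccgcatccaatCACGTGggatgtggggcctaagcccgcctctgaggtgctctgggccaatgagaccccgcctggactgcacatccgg
Mael: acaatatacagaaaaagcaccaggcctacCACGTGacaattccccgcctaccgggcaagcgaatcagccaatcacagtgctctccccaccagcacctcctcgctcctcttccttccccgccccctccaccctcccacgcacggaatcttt

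These windows lie at chr9:18193113-18193362 on the plus strand for Dazl, chr2:46016002-46016201 on the minus strand for Ddx4 and chr4:79701591-79701690 on the plus strand for Stk31. Those of Fkbp6, Tex12, Tuba3a and Mael lie at chr12:26955981-26956130 (plus), chr8:59809559-59809708 (minus), chr4:159770251-159770350 (minus) and chr13:81029724-81029873 (minus). The E-box starts at position -80 in Ddx4, -124 in Stk31, -56 in Fkbp6, -34 in Tex12, -126 in Tuba3a and -221 in Mael. The Dazl window holds 23 CpG dinucleotides in 250 bases but neither motif in these letters. A GCGGGA starts at -187 in Ddx4 and at -86 in Tex12. Tuba3a holds 1 further TCCCGC or GCGGGA, at -186, outside the printed stretch.

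Promoters were matched by symbol for 35 of the 42 members of the germ cell, piRNA and meiosis lists that were higher at E12.5. CACGTG stood in 14 of the 35 (40%), against 10.1% of the 7824 tested genes with a promoter, 11.7% of those higher, 9.55% of those lower and 6.42% of all 33469 promoters. TCCCGC on either strand stood in 14 of the 35 (40%), against 37.8% of tested genes and 18.7% of all promoters. The 35 promoters had a median of 18 CpG in 300 bases, against 22 for tested genes and 7 for all promoters. The E-box share of these members thus stood above that of tested genes and the TCCCGC share close to it, neither with a test. A match is a description of the letters, and binding was not measured.

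The factors that found the germ line differed far less than the gonadal genes. Tfap2c, a transcription factor of germ cell specification, had 206 and 287 RPKM at E9.5 and 349.5 and 337 RPKM at E12.5. Prdm1, which represses the somatic program, had 23.4 and 26.2 RPKM at E9.5 and 38.8 and 29.1 RPKM at E12.5. The E12.5 libraries lay above the E9.5 libraries for both, by 0.49 (SE 0.22) and 0.43 (SE 0.35), but neither passed (limma adjusted p = 0.119 and 0.412). Prdm14 itself, whose reporter marked the cells, had 11.5 and 3.64 RPKM at E9.5 and 11.3 and 17.4 RPKM at E12.5, with overlapping ages (limma adjusted p = 0.416). Nanos3, an RNA-binding protein that protects migrating germ cells, had 84.1 and 62.5 RPKM at E9.5 and 92.6 and 113 RPKM at E12.5. Kit, the receptor that supports their survival, had 67.9 and 85.3 RPKM at E9.5 and 98.5 and 88.9 RPKM at E12.5. For these 2 the E12.5 libraries also lay above the E9.5 libraries, by 0.49 (SE 0.34) and 0.29 (SE 0.26). Neither passed (limma adjusted p = 0.33 and 0.441). The differences of all 5 were thus smaller than those of Dazl and Ddx4, and the early factors were present at both ages. Since the Prdm14 reporter marked the cells, the presence of Prdm14 at both ages is not counted as a result.

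For Dppa3 and Dnd1 the E9.5 libraries stood far apart. Dppa3, also known as Stella, which protects methylation in the early embryo, rose from 0.106 and 31.3 RPKM at E9.5 to 85.7 and 81.7 RPKM at E12.5. Replicate 1 at E9.5 was near 0 and replicate 2 was not, and the gene was near 0 again at E10.5 and E11.5, with 0.537 and 0 RPKM at the first of these ages and 0.485 and 0.498 RPKM at the second. It passed with a difference of 3.82 (SE 1.03, limma adjusted p = 0.0155), which became 1.39 without E9.5 replicate 1 and 6.26 without replicate 2. The call ended with the 4 libraries alone (limma adjusted p = 0.15), with the 8 libraries of germ cells from E9.5 to E12.5 (limma adjusted p = 0.0758) and without E12.5 replicate 1 or 2 (limma adjusted p = 0.0794 and 0.0756). Dnd1, an RNA-binding partner of Nanos proteins, had 29.6 and 107 RPKM at E9.5 and 118 and 101 RPKM at E12.5. Its E9.5 replicates bracketed 1 E12.5 library, and it passed only without E9.5 replicate 2 (limma adjusted p = 0.000803).

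Of 16 tested members of the germ cell specification list, 6 were higher and 2 lower, against 13.3% and 13.9% of all tested genes. The median was 0.71. Of the 6 and 2 members, 4 and 2 kept the call in each alternative. Alpl, the alkaline phosphatase long used to stain germ cells, rose from 25.03 and 31.5 RPKM at E9.5 to 174 and 170.2 RPKM at E12.5 (difference 2.57, SE 0.20, limma adjusted p = 2.88e-06). Tcl1a, a coactivator of the kinase AKT, rose from 0 and 2.24 RPKM at E9.5 to 144 and 166 RPKM at E12.5, with both E12.5 libraries far above. The interferon-induced membrane protein genes Ifitm1 and Ifitm3 were higher at E12.5 than at E9.5 but highest at E10.5. Ifitm1 stood at 94.3 and 99.1 RPKM at E9.5, 991 and 777 at E10.5, 689 and 689 at E11.5 and 392 and 397 at E12.5, and near-identical copies make its value uncertain. The let-7 blocker gene Lin28a was lower, at 177 and 163 RPKM at E9.5 and 61.1 and 63.02 RPKM at E12.5 (difference -1.44, SE 0.17, limma adjusted p = 6.96e-05). Fut4, whose enzyme makes the surface antigen SSEA1 used to sort early germ cells, was also lower, at 5.06 and 5.92 RPKM at E9.5 and 0.338 and 0 RPKM at E12.5.

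Pluripotency factors were more often higher than lower at E12.5. Of 14 tested members, 8 were higher and 2 lower, with a median of 1.45. Only 4 of the 8 kept the call in each alternative, and as few as 5 were called higher in a single one, whereas both lower members kept it. Sox2 had 34.4 and 56.7 RPKM at E9.5 and 119 and 121 RPKM at E12.5, with no overlap (difference 1.42, SE 0.26, limma adjusted p = 0.00154). Utf1, a chromatin factor of pluripotent cells, rose from 283 and 274 RPKM at E9.5 to 1209 and 1418 RPKM at E12.5. Klf2, a factor of the naive state, had 1.47 and 8.39 RPKM at E9.5 and 60.5 and 86.8 RPKM at E12.5. Both rises kept the ages apart, though the E9.5 replicates of Klf2 were not close. Klf4, a related factor, was low throughout but separated, at 0 and 0.807 RPKM at E9.5 and 6.13 and 7.26 RPKM at E12.5. Pou5f1, which encodes OCT4, had 147 and 189 RPKM at E9.5 and 234 and 254 RPKM at E12.5 and did not pass (limma adjusted p = 0.355).

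Nanog, another core factor, rose from 36.96 and 37.6 RPKM at E9.5 to 100.2 and 133 RPKM at E12.5, with E12.5 above E9.5 in all 4 comparisons of libraries (difference 1.60, SE 0.44, limma adjusted p = 0.0176). Its call ended with library weights (limma adjusted p = 0.0569) and without any single library. The limma adjusted p was 0.0748 and 0.0615 without E9.5 replicate 1 and 2, and 0.0532 and 0.123 without E12.5 replicate 1 and 2. The 2 lower members were Tbx3, at 36.2 and 52.1 RPKM at E9.5 and 0.691 and 1.43 RPKM at E12.5, and the growth factor gene Fgf4, at 22.5 and 14.8 RPKM at E9.5 and listed at 0 in both E12.5 libraries. Tbx3 also serves in mesoderm and extraembryonic tissue.

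Genes of the piRNA pathway, which makes small RNAs against transposons, were mostly higher. Of 19 tested members of 22 in the table, 14 were higher and 1 lower, with a median of 3.04. Tex19.1, a mammal-specific gene that restrains retrotransposons, had 2.95 and 0 RPKM at E9.5 and 221 and 234 RPKM at E12.5. Fkbp6, a chaperone partner of the pathway, rose from 0.239 and 0 RPKM at E9.5 to 104 and 90.2 RPKM at E12.5. Piwil2, the Argonaute protein that binds piRNAs in fetal germ cells, had 0 and 0.0766 RPKM at E9.5 and 36.2 and 28.7 RPKM at E12.5. All were near 0 at E9.5 and separated by age, by 6.85, 6.46 and 5.002 on the log2 scale. The helicase gene Mov10l1 rose from 0.0547 and 0.938 RPKM at E9.5 to 28.04 and 32.6 RPKM at E12.5. Mael, needed for the pathway's nuclear arm, rose from 1.07 and 0.346 RPKM at E9.5 to 18.7 and 20.4 RPKM at E12.5.

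Genes of tudor-domain scaffolds of the pathway were also higher. Tdrd1 had 1.16 and 0.0126 RPKM at E9.5 and 12.4 and 11.3 RPKM at E12.5. Tdrkh rose from 3.25 and 4.89 RPKM at E9.5 to 28.7 and 34.2 RPKM at E12.5. The E12.5 libraries of both lay above all E9.5 values. Henmt1, which methylates piRNA ends, had 8.69 and 15.0046 RPKM at E9.5 and 13.2 and 15.5 RPKM at E12.5 with overlapping ages and did not pass (limma adjusted p = 0.636). Piwil4, the partner Argonaute of the nuclear arm, did not pass either, at 2.72 and 0 RPKM at E9.5 and 1.09 and 1.96 RPKM at E12.5, and Piwil1 stayed under 1 RPKM in all 4 libraries. The single lower member was Nynrin, at 1.05 and 2.1 RPKM at E9.5 and 0 and 0.383 RPKM at E12.5, a call that ended under 5 alternatives, among them the 4 libraries alone (limma adjusted p = 0.101) and without E9.5 replicate 2 or E12.5 replicate 1 (limma adjusted p = 0.101 and 0.146). Of the 14 members higher, 12 kept the call in each alternative.

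Several meiotic genes were already present at E12.5, at lower levels than the germ cell markers. Of 17 tested members of 27 in the table, 10 were higher and 1 lower, with a median of 1.84. The call held in each alternative for 9 of the 10 and for the lower member. Tex12, a component of the synaptonemal complex that pairs chromosomes, rose from 1.54 and 0 RPKM at E9.5 to 86.97 and 86.5 RPKM at E12.5 (difference 5.78, SE 0.42, limma adjusted p = 1.97e-06). The meiotic cohesin gene Smc1b rose from 0.0151 and 0.00768 RPKM at E9.5 to 18.7 and 16.9 RPKM at E12.5. Hormad1, which marks unsynapsed axes, had 0.0203 and 0 RPKM at E9.5 and 9.19 and 17.7 RPKM at E12.5. The E12.5 replicates of Hormad1 were less close than those of Smc1b. Sycp3, the axis protein, rose from 0 and 0.888 RPKM at E9.5 to 9.33 and 10.7 RPKM at E12.5. The cohesin gene Stag3 had 0.0147 and 0.889 RPKM at E9.5 and 10.3 and 9.77 RPKM at E12.5. All 5 were under 2 RPKM at E9.5 and higher in both E12.5 libraries.

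Some members of the list were at or near 0, lower or not called. Stra8, the retinoic acid target that starts meiosis, was listed at 0 in all 4 libraries. Dmc1, the meiotic recombinase, was listed at 0 and 0 RPKM at E9.5 and 0.0254 and 0.792 RPKM at E12.5. Spo11, the enzyme of meiotic breaks, was low and lower at E12.5, at 3.58 and 7.94 RPKM at E9.5 and 0.264 and 0.635 RPKM at E12.5 (difference -2.15, SE 0.35, limma adjusted p = 0.000719). Syce2, also of the synaptonemal complex, had 7.09 and 5.0 RPKM at E9.5 and 8.57 and 9.46 RPKM at E12.5 and did not pass (limma adjusted p = 0.312). Of 27 members in the table, 10 were too low at both ages to test.

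Genes outside the lists completed the top of the ranking. Tex19.2, a paralog of Tex19.1, rose from 0.0151 and 0 RPKM at E9.5 to 188 and 183 RPKM at E12.5. Sage1 was listed at 0 in both E9.5 libraries and at 92.7 and 91.2 RPKM at E12.5. Pramef12 had 0.0246 and 0 RPKM at E9.5 and 84.04 and 82.3 RPKM at E12.5. Sage1 belongs to the cancer-testis genes and Pramef12 to the PRAME family, both known from the germ line. Tuba3a, a paralog of Tuba3b whose reads may be shared with it, rose from 0.176 and 0 RPKM at E9.5 to 89.4 and 91.7 RPKM at E12.5. All 4 were far above E9.5 in both E12.5 libraries.

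DNA methylation genes changed in both directions, 7 of 18 tested members higher and 4 lower, with a median of 0.13. The shares over all tested genes were 13.3% and 13.9%. In each alternative 5 of the 7 and 2 of the 4 kept the call. Tet1, which oxidises methylcytosine, had 3.62 and 6.28 RPKM at E9.5 and 25.6 and 24.6 RPKM at E12.5. Tet2 rose from 0.771 and 0.298 RPKM at E9.5 to 5.83 and 5.02 RPKM at E12.5, both separated by age (differences 2.17 (SE 0.34) and 2.08 (SE 0.40)). The maintenance methyltransferase gene Dnmt1 had 32.5 and 41.97 RPKM at E9.5 and 27.8 and 27.2 RPKM at E12.5. Its partner Uhrf1 had 20.04 and 18.5 RPKM at E9.5 and 23.7 and 18.6 RPKM at E12.5, and neither passed (limma adjusted p = 0.492 and 0.802). The de novo enzyme gene Dnmt3b did not pass either, at 13.5 and 26.2 RPKM at E9.5 and 12.8 and 9.42 RPKM at E12.5. Tdg, which excises oxidised methylcytosine, was lower, at 119 and 129.7 RPKM at E9.5 and 67.4 and 73.04 RPKM at E12.5 (difference -0.81, SE 0.16, limma adjusted p = 0.00237). Gadd45b, of the DNA repair response, was higher, at 10.3 and 13.7 RPKM at E9.5 and 63.1 and 67.9 RPKM at E12.5. Uhrf2, a paralog of Uhrf1, was lower, at 68.3 and 65.9 RPKM at E9.5 and 47.9 and 38.3 RPKM at E12.5, a call that ended with the 4 libraries alone (limma adjusted p = 0.0806) and without E9.5 replicate 1 or E12.5 replicate 2 (limma adjusted p = 0.0503 and 0.123).

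Of the enzymes of histone methylation, 1 of 23 tested members was higher and 1 lower, against 13.3% and 13.9% of all tested genes. Kdm2b, which ties Polycomb complexes to CpG islands, rose from 15.4 and 21.5 RPKM at E9.5 to 87.6 and 92.7 RPKM at E12.5, with a difference of 2.24 (SE 0.24, limma adjusted p = 3.47e-05). It was higher at each later age, with 29.1 and 44.9 RPKM at E10.5 and 60.3 and 53.9 RPKM at E11.5. Prmt5, an arginine methyltransferase linked to Prdm1, had 153 and 186 RPKM at E9.5 and 171 and 154 RPKM at E12.5. Ezh2, the Polycomb methyltransferase, had 64.1 and 65.01 RPKM at E9.5 and 81.7 and 95.2 RPKM at E12.5. Neither passed (limma adjusted p = 0.793 and 0.128). The demethylase gene Kdm6b was lower from a low level, at 1.79 and 3.42 RPKM at E9.5 and 0.305 and 0.488 RPKM at E12.5, and its call ended with the 4 libraries alone (limma adjusted p = 0.0658) and without E9.5 replicate 2 or either E12.5 replicate (limma adjusted p = 0.0975, 0.0964 and 0.0605).

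Genes of posterior and extraembryonic mesoderm were among the largest falls. Hand1, a transcription factor of extraembryonic and lateral mesoderm, fell from 261 and 245 RPKM at E9.5 to 1.24 and 3.13 RPKM at E12.5. The E9.5 replicates were close and both E12.5 libraries were under 4 RPKM, a difference of -6.38 (SE 0.62, limma adjusted p = 1.68e-05). Of 15 tested members of the extraembryonic mesoderm and allantois list, 12 were lower and none higher, with a median of -3.74. In each alternative 11 of the 12 kept the call. Pitx1 stood at 24.7 and 28.97 RPKM at E9.5 and was listed at 0 in both E12.5 libraries. Foxf1, a target of hedgehog signals in this mesoderm, had 24.6 and 29.5 RPKM at E9.5 and 0.148 and 0.012 RPKM at E12.5. Tbx4, a T-box gene of the allantois, fell from 72.7 and 77.2 RPKM at E9.5 to 4.33 and 3.85 RPKM at E12.5. All 3 were lower in both E12.5 libraries. Bmp4 is a ligand that induces germ cells and was listed with this tissue, and it did not pass, at 159.6 and 142 RPKM at E9.5 and 131 and 154 RPKM at E12.5 (limma adjusted p = 0.798).

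Genes of the primitive streak and the caudal embryo were lower in 16 of 20 tested members and higher in 2, with a median of -1.80. In each alternative 10 of the 16 kept the call. T, which encodes Brachyury and is used in germ cell specification, had 57.03 and 62.05 RPKM at E9.5 and 4.39 and 4.36 RPKM at E12.5. It was lower at each later age, with 21.7 and 22.7 RPKM at E10.5 and 8.57 and 8.33 RPKM at E11.5, a difference of -3.49 (SE 0.55, limma adjusted p = 0.00057). Fgf8, a streak signal, fell from 101 and 113 RPKM at E9.5 to 1.17 and 1.11 RPKM at E12.5. Cdx2, a posterior identity factor, fell from 59.6 and 29.1 RPKM at E9.5 to 0.0819 and 0.0439 RPKM at E12.5. The noncanonical Wnt ligand gene Wnt5a had 49.99 and 61.04 RPKM at E9.5 and 1.26 and 0.795 RPKM at E12.5. All were under 2 RPKM in both E12.5 libraries. Dll1, a Notch ligand, did not pass, at 3.27 and 10.95 RPKM at E9.5 and 2.99 and 5.28 RPKM at E12.5 (limma adjusted p = 0.5).

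Wnt5b and Wnt8a, which encode Wnt ligands, were the 2 members of that list that were higher. Wnt5b rose from 0.713 and 1.31 RPKM at E9.5 to 2.77 and 7.96 RPKM at E12.5. Wnt8a had 3.95 and 5.26 RPKM at E9.5 and 12.05 and 12.8 RPKM at E12.5. They lost their calls under 8 and 5 alternatives, respectively. With the 4 libraries alone their limma adjusted p was 0.109 and 0.0642. Without E12.5 replicate 2 the Wnt5b difference was 0.92 instead of 1.55 (limma adjusted p = 0.282), and without E9.5 replicate 1 or 2 its limma adjusted p was 0.147 or 0.0533. Wnt8a reached limma adjusted p = 0.0633 without E9.5 replicate 1, 0.0532 without E12.5 replicate 1 and 0.0685 without E12.5 replicate 2.

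Hox genes, which give cells their position along the body axis, were lower in 16 of 18 tested members and higher in none, with a median of -2.81. The other 17 of 35 in the table were too low to test. Of the 35, 19 and 26 were listed at 0 in the E12.5 libraries, and 8 and 9 in the E9.5 libraries. A member silent at E12.5 is tested only if it passes the filter at E9.5, so the direction follows in part from the filter. Hoxb6 fell from 41.8 and 21.4 RPKM at E9.5 to 0 and 1.54 RPKM at E12.5. Hoxb2 fell from 20.8 and 20.7 RPKM at E9.5 to 0.629 and 0 RPKM at E12.5. Hoxc10 had 17.9 and 11.8 RPKM at E9.5 and 0 and 0 RPKM at E12.5. Each was above 11 RPKM in both E9.5 libraries and under 2 in both E12.5 libraries. Members of the a, b, c and d clusters were all among those lower, and 15 of the 16 kept the call in each alternative. Hoxb1, whose E9.5 replicates differed, did not pass, at 9.18 and 35.7 RPKM at E9.5 and 7.7 and 3.28 RPKM at E12.5 (limma adjusted p = 0.122). Hoxd8 did not pass either, at 3.41 and 3.32 RPKM at E9.5 and 3.2 and 2.56 RPKM at E12.5 (limma adjusted p = 0.782).

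**Figure D3:**
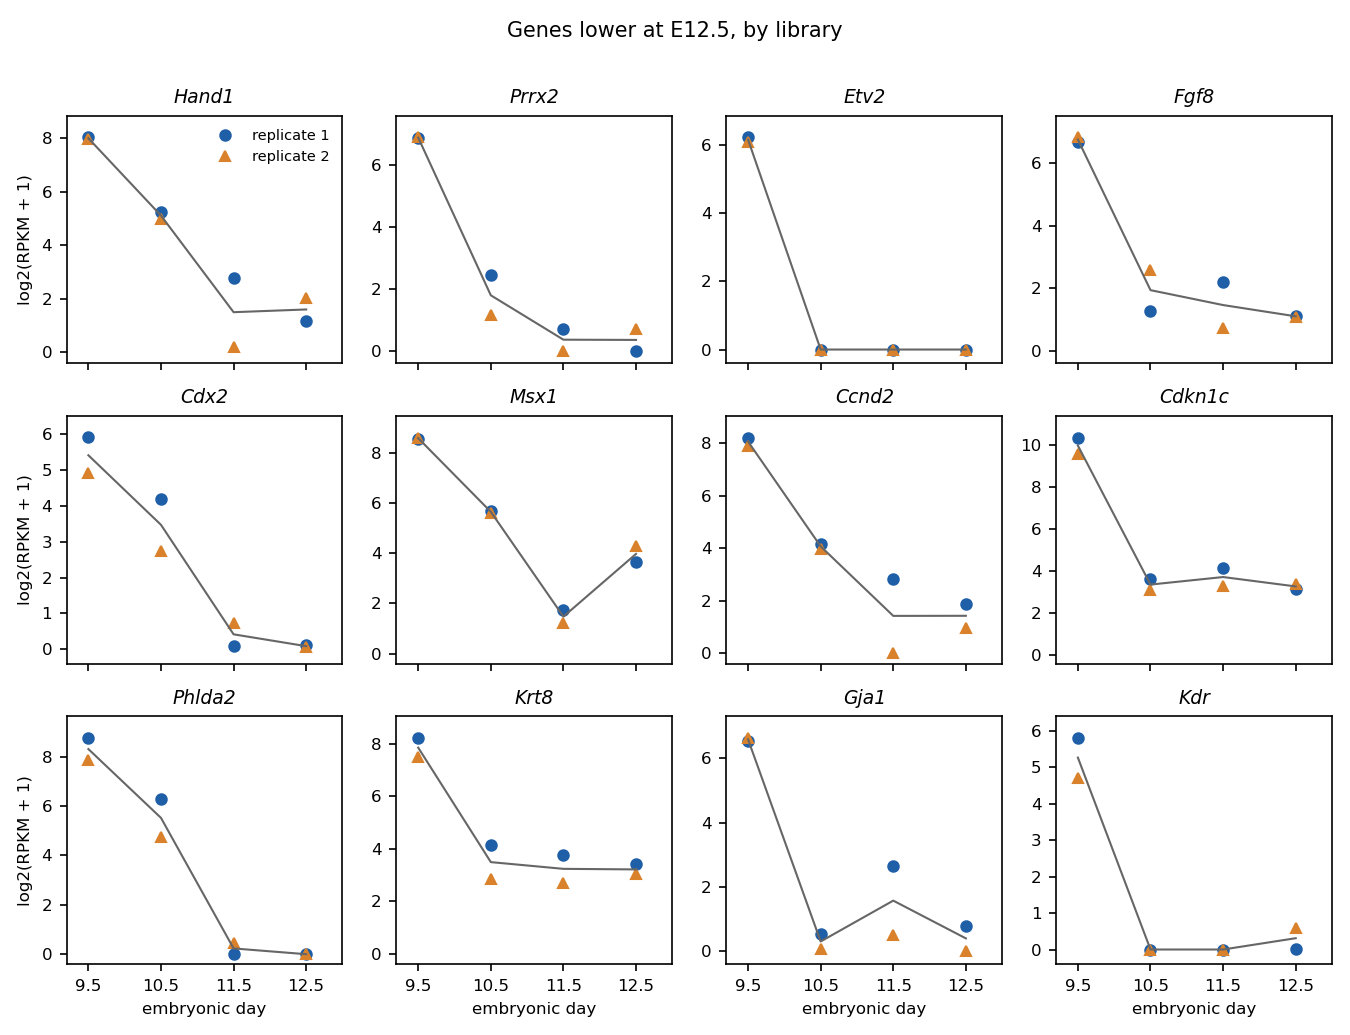
Log2(RPKM + 1) by embryonic day in each library (circles replicate 1, triangles replicate 2, line through the mean) for 12 genes lower at E12.5. Etv2 and Kdr are listed at or near 0 from E10.5 on, Cdkn1c and Gja1 are already low at E10.5, and Hand1, Cdx2, Msx1, Ccnd2 and Phlda2 pass through intermediate values.

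Mesenchyme and endothelial genes followed the same direction. Of 16 tested members of the mesenchyme and matrix list 11 were lower and none higher (median -2.42), and of 12 of the endothelium list 8 were lower and none higher (median -2.19). In the mesenchyme list 8 of the 11 kept the call in each alternative. Prrx2, a homeobox gene of mesenchyme, fell from 116 and 120.0 RPKM at E9.5 to 0 and 0.631 RPKM at E12.5. Twist1, a factor of the transition from epithelium to mesenchyme, had 34.2 and 27.1 RPKM at E9.5 and 0.516 and 1.09 RPKM at E12.5. Each was under 2 RPKM in both E12.5 libraries. The intermediate filament gene Vim fell from 125 and 40.7 RPKM at E9.5 to 3.42 and 7.69 RPKM at E12.5. Fibronectin, Fn1, fell from 59.1 and 81.96 RPKM at E9.5 to 9.7 and 11.2 RPKM at E12.5. The E9.5 replicates of Vim were far apart, with replicate 1 the higher, but did not overlap with E12.5. Etv2, the factor that founds the blood and endothelial lineages, had 73.9 and 65.8 RPKM at E9.5 and was listed at 0 in both E12.5 libraries. Kdr, the VEGF receptor of their precursors, had 55.2 and 25.3 RPKM at E9.5 and 0.0158 and 0.513 RPKM at E12.5, a difference of -4.95 (SE 0.35, limma adjusted p = 1.93e-06).

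The E9.5 libraries did not share these endothelial genes equally. Summed over the 17 endothelial genes in the table, RPKM were 501 in replicate 1 and 167 in replicate 2 at E9.5. Tal1, a factor of blood and endothelial precursors, fell from 23.4 and 2.82 RPKM at E9.5 to 0.233 and 0 RPKM at E12.5, with a difference of -3.12 that was -1.78 without E9.5 replicate 1. Its call ended with the 4 libraries alone (limma adjusted p = 0.0721). Cldn5, a junction gene of endothelium, was listed at 27.4 and 0 RPKM at E9.5 and passed only without E9.5 replicate 2 (limma adjusted p = 0.00109). Only 3 of the 8 lower members, Etv2, Kdr and Lmo2, kept the call in each alternative. Whether cells of another type in the E9.5 libraries contribute to these differences was not tested.

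Several targets of BMP signals were lower. Of 22 tested members 11 were lower and none higher, with a median of -1.47. In each alternative 9 of the 11 kept the call. Id1, a direct target that blocks differentiation factors, had 646 and 432 RPKM at E9.5 and 65.2 and 69.00 RPKM at E12.5, a difference of -2.96 (SE 0.28, limma adjusted p = 1.42e-05). Id2, a relative of Id1, fell from 329 and 234 RPKM at E9.5 to 50.7 and 52.3 RPKM at E12.5. Neither Id gene overlapped between the ages. The homeobox target gene Msx1 fell from 378 and 391 RPKM at E9.5 to 11.7 and 18.5 RPKM at E12.5. Its relative Msx2 had 248 and 209 RPKM at E9.5 and 26.9 and 30.5 RPKM at E12.5. Bambi, a decoy receptor induced by the pathway, fell from 530.0 and 446 RPKM at E9.5 to 95.4 and 86.2 RPKM at E12.5. All 5 were lower in both E12.5 libraries. Id3, a further target, did not pass, at 619 and 541 RPKM at E9.5 and 581 and 656 RPKM at E12.5 (limma adjusted p = 0.682). The receptor gene Bmpr1a, at 15.7 and 16.4 RPKM at E9.5 and 16.1 and 16.5 RPKM at E12.5, and the transducer genes Smad5 and Smad4 did not pass (limma adjusted p = 0.968, 0.845 and 0.426).

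The Nodal pathway, which belongs to the same superfamily, had rises in its ligand and co-receptor genes. Nodal, the ligand, had 0 and 2.29 RPKM at E9.5 and 37.9 and 39.7 RPKM at E12.5 (difference 4.46, SE 0.43, limma adjusted p = 1.57e-05). It was at 19.6 and 28.8 RPKM by E10.5. Lefty2, its feedback inhibitor, rose from 0.0213 and 1.77 RPKM at E9.5 to 181 and 197 RPKM at E12.5, but stands on several lines of the table and is uncertain. Tdgf1, the co-receptor also known as Cripto, rose from 10.4 and 0 RPKM at E9.5 to 41.4 and 51.98 RPKM at E12.5. Replicate 1 at E9.5 was well above replicate 2, and the difference of 3.81 was 2.05 without replicate 2. The call ended with the 4 libraries alone (limma adjusted p = 0.0779).

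Other members were lower. Of 13 tested, 4 were higher and 4 lower, against 13.3% and 13.9% of all tested genes, with a median of -0.06. Only 2 in each direction kept the call in each alternative. The transducer gene Smad3 had 4.42 and 5.1 RPKM at E9.5 and 0.169 and 0 RPKM at E12.5. Cfc1, a co-receptor related to Tdgf1 and not on the list, fell from 64.7 and 50.8 RPKM at E9.5 to 0.104 and 0.0932 RPKM at E12.5 and was among the largest falls. The receptor gene Acvr2b did not pass, at 72.4 and 71.2 RPKM at E9.5 and 71.9 and 57.96 RPKM at E12.5 (limma adjusted p = 0.488).

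Retinoic acid genes were lower in 9 of 12 tested members and higher in none, against 13.9% and 13.3% of all tested genes. The median was -1.84. Aldh1a2, which makes retinoic acid, had 39.9 and 102 RPKM at E9.5 and 2.53 and 5.86 RPKM at E12.5. Cyp26a1, which degrades it, fell from 36.6 and 30.4 RPKM at E9.5 to 0.228 and 0 RPKM at E12.5. The binding protein gene Crabp1 fell from 461 and 354 RPKM at E9.5 to 34.7 and 27.9 RPKM at E12.5, a difference of -3.66 (SE 0.27, limma adjusted p = 2.18e-06). Both E12.5 libraries lay under both E9.5 libraries for each of these. The receptor gene Rara did not pass, at 18.2 and 18.3 RPKM at E9.5 and 24.1 and 17.9 RPKM at E12.5 (limma adjusted p = 0.597). Of the 9, 5 kept the call in each alternative.

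Among receptor tyrosine kinases and their feedback genes 3 of 20 tested members were higher and 4 lower. The shares over all tested genes were 13.3% and 13.9%. Of the 3 and 4 members, 1 and 2 kept the call in each alternative. Etv5, a target of FGF and GDNF signals, had 76.4 and 91.1 RPKM at E9.5 and 153 and 160.4 RPKM at E12.5 (difference 0.90, SE 0.13, limma adjusted p = 0.000242). The feedback genes Spry1 and Spry4 did not pass, with 37.9 and 43.7 RPKM at E9.5 and 37.2 and 43.1 RPKM at E12.5 for Spry1. Kitlg, the KIT ligand, had 67.6 and 37.6 RPKM at E9.5 and 28.6 and 31.9 RPKM at E12.5 and did not pass (limma adjusted p = 0.295). The receptor genes Ret and Fgfr2 were higher. Ret had 6.78 and 14.8 RPKM at E9.5 and 31.5 and 31.6 RPKM at E12.5. Fgfr2 rose from 11.9 and 21.2 RPKM at E9.5 to 33.4 and 36.3 RPKM at E12.5. Both calls ended with the 4 libraries alone (limma adjusted p = 0.0539 and 0.0819). The same held without E9.5 replicate 1 (limma adjusted p = 0.229 and 0.19), E12.5 replicate 1 (limma adjusted p = 0.131 and 0.093) or E12.5 replicate 2 (limma adjusted p = 0.133 and 0.13). The Fgfr2 difference of 1.08 was 0.69 without E9.5 replicate 1.

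Genes of cell contacts changed in both directions. Of 23 tested adhesion and migration genes, 2 were higher and 7 lower, against 13.3% and 13.9% of all tested genes. Of these, 1 and 6 kept the call in each alternative. Epcam, an epithelial adhesion molecule also used to sort germ cells, rose from 189 and 172 RPKM at E9.5 to 450.3 and 499.6 RPKM at E12.5, a difference of 1.39 (SE 0.13, limma adjusted p = 1.3e-05). Cdh2, or N-cadherin, had 25.7 and 36.8 RPKM at E9.5 and 1.29 and 2.78 RPKM at E12.5. Cdh1, or E-cadherin, had 28.7 and 48.6 RPKM at E9.5 and 48.3 and 47.8 RPKM at E12.5. The first was a difference of -3.43 (SE 0.48, limma adjusted p = 0.000237) and the second did not pass (limma adjusted p = 0.453). Gja1, the gap junction gene connexin 43, had 91.9 and 98.7 RPKM at E9.5 and 0.724 and 0.00923 RPKM at E12.5. The surface antigen gene Cd24 fell from 165 and 126 RPKM at E9.5 to 13.4 and 13.9 RPKM at E12.5. Cxcr4, the chemokine receptor that guides migrating germ cells, did not pass, at 33.01 and 29.7 RPKM at E9.5 and 42.9 and 27.2 RPKM at E12.5 (limma adjusted p = 0.881).

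The keratin genes Krt8 and Krt19 were also lower. Krt8 fell from 297 and 178 RPKM at E9.5 to 9.57 and 7.1 RPKM at E12.5. Krt19 had 38.4 and 62.9 RPKM at E9.5 and 1.08 and 1.56 RPKM at E12.5. They stand on a list of endoderm and gut epithelium, of which 5 of 11 tested members were lower and 1, Epcam, higher. Among all tested genes 13.9% were lower and 13.3% higher. Trh, also on that list, was lower too, but its call ended without E9.5 replicate 2 (difference -2.64) or E12.5 replicate 2 (difference -3.04). Rbp4, a further member, passed only with a pseudocount of 0.1 (difference -4.66, limma adjusted p = 0.0418). Of the 21 members in the table, 10 were too low to test, among them Foxa2, Hnf4a and Shh. Foxa2 was listed at 0.735 and 0.864 RPKM at E9.5 and 0 and 0 RPKM at E12.5. Hnf4a and Shh stayed under 1 RPKM in all 4 libraries. Sox17, an endoderm factor that is also expressed in germ cells of some species, had 31.7 and 43.2 RPKM at E9.5 and 9.92 and 12.2 RPKM at E12.5. It did not pass in the fit of 18 libraries (limma adjusted p = 0.0827) but did in that of 4 (limma adjusted p = 0.0208).

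**Figure D4:**
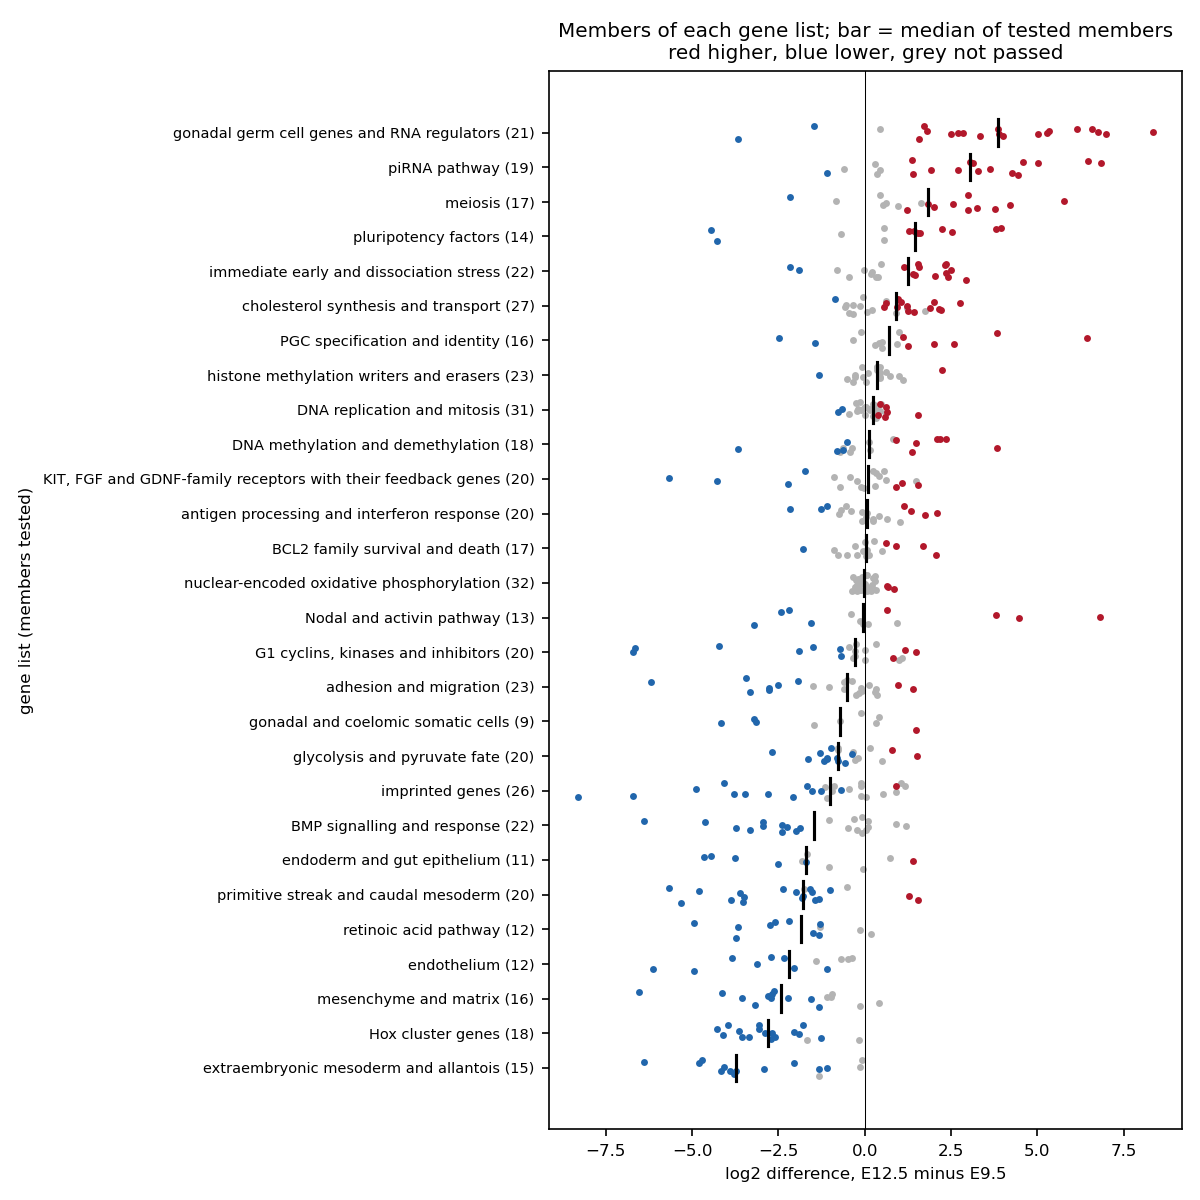
Log2 difference (E12.5 minus E9.5) of each tested member, 1 row per gene list, for the 28 lists of 9 or more tested members, red higher, blue lower, grey not passed, with a black bar at the median. The germ cell, piRNA and meiosis lists have the highest medians (3.87, 3.04 and 1.84), and the allantois and Hox lists the lowest (-3.74 and -2.81).

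Of the G1 regulators 3 of 20 tested members were higher and 7 lower, against 13.3% and 13.9% of all tested genes. Of these, 1 and 3 kept the call in each alternative. Cdkn1c, an imprinted inhibitor of cyclin-dependent kinases also known as p57, had 1301 and 773 RPKM at E9.5 and 7.83 and 9.59 RPKM at E12.5, and the difference of -6.70 was the largest fall after that of Phlda2 (limma adjusted p = 7.38e-07). Cyclin D2, Ccnd2, fell from 296 and 239.7 RPKM at E9.5 to 2.67 and 0.958 RPKM at E12.5. Cyclin D1, Ccnd1, fell from 20.8 and 33.7 RPKM at E9.5 to 0.159 and 0.861 RPKM at E12.5. Both were under 3 RPKM at E12.5. Cyclin D3, Ccnd3, did not pass, at 88.3 and 167 RPKM at E9.5 and 134 and 112 RPKM at E12.5 (limma adjusted p = 0.981). Its kinase gene Cdk4 did not pass either, at 904 and 838 RPKM at E9.5 and 824 and 932 RPKM at E12.5 (limma adjusted p = 0.973). Rbl2, a relative of the retinoblastoma gene, was higher from a low level, at 0.901 and 0.921 RPKM at E9.5 and 4.27 and 4.46 RPKM at E12.5.

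Of 31 tested replication and mitosis genes 6 were higher and 2 lower, a share close to the 27.2% of all tested genes called, with a median of 0.24. The proliferation marker gene Mki67 had 45.1 and 35.5 RPKM at E9.5 and 36.4 and 44.2 RPKM at E12.5. Top2a had 103 and 106 RPKM at E9.5 and 98.4 and 112 RPKM at E12.5, with overlapping ages and no call (limma adjusted p = 0.996 and 0.984). Cenpa, the centromeric histone, had 40.9 and 42.2 RPKM at E9.5 and 117 and 127 RPKM at E12.5, a difference of 1.53 (SE 0.20, limma adjusted p = 0.000149). Cenpa was the only 1 of the 8 called members that kept its call in each alternative.

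Glycolytic genes were lower in 11 of 20 tested members and higher in 2, against 13.9% and 13.3% of all tested genes. The median was -0.77. Only 7 of the 11 and 1 of the 2 kept the call in each alternative, the same counts as with the 4 libraries alone. Ldha, which makes lactate, fell from 666 and 549 RPKM at E9.5 to 272 and 265 RPKM at E12.5, a difference of -1.17 (SE 0.14, limma adjusted p = 6.68e-05). Ldhb, the other subunit of the enzyme, was higher, at 464 and 586 RPKM at E9.5 and 899.8 and 899 RPKM at E12.5. The 2 subunit genes thus moved in opposite directions, each without overlap. The lactate exporter gene Slc16a3 fell from 97.6 and 157 RPKM at E9.5 to 17.5 and 19.1002 RPKM at E12.5. The glucose transporter gene Slc2a1 had 160.5 and 198 RPKM at E9.5 and 74.2 and 92.1 RPKM at E12.5. Aldoa did not pass, at 1284 and 1139 RPKM at E9.5 and 992 and 1015 RPKM at E12.5 (limma adjusted p = 0.191). Gapdh, Tpi1 and Eno2 were under 2 RPKM in all 4 libraries and not tested.

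Of the nuclear genes of oxidative phosphorylation 3 of 32 tested members were higher and none lower, against 13.3% and 13.9% of all tested genes. The median was -0.01. Atp5g1 rose from 279 and 247 RPKM at E9.5 to 486 and 463 RPKM at E12.5. Sdha had 215 and 242 RPKM at E9.5 and 343 and 375 RPKM at E12.5, higher by 0.85 and 0.65. The summed RPKM of the list were highest at E10.5, though abundant members weigh most in such a sum. Over 33 genes the sum reached 12207 and 10225 RPKM at E9.5, 24360.0 and 20500.2 at E10.5, 15812 and 15703 at E11.5 and 11378 and 10992 at E12.5. The sum over all genes was also higher at E10.5, at 849182 and 760137 RPKM against 603420 to 675650 in the 4 libraries compared. The E10.5 and E11.5 libraries were both shallower, at 20.5% to 22.7% of the depth of E12.5 replicate 1. At E11.5 the sum over all genes was 671179 and 669651 RPKM. The part of depth in the list's sum was not tested.

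Imprinted genes, expressed from 1 parental allele in somatic cells, were lower in 12 of 26 tested members and higher in 1. The shares over all tested genes were 13.9% and 13.3%, and the median of the list was -1.01. The call held in each alternative for 8 of the 12 and for the higher member. Phlda2, which restrains placental growth, had 429 and 231 RPKM at E9.5 and was listed at 0 in both E12.5 libraries, the largest fall of any tested gene (-8.30, SE 0.50, limma adjusted p = 6.7e-07). The neighbouring imprinted gene Slc22a18 fell from 8.32 and 15.1 RPKM at E9.5 to 0.204 and 0 RPKM at E12.5. Grb10, an adaptor that restrains growth signals, fell from 69.3 and 82.9 RPKM at E9.5 to 1.85 and 1.35 RPKM at E12.5. The fetal growth factor gene Igf2 had 48.99 and 20.7 RPKM at E9.5 and 1.03 and 0.865 RPKM at E12.5. Each was lower in both E12.5 libraries. Peg3 did not pass, at 101 and 126 RPKM at E9.5 and 101 and 109 RPKM at E12.5 (limma adjusted p = 0.804). Mest did not pass either, at 251 and 191 RPKM at E9.5 and 166 and 155 RPKM at E12.5 (limma adjusted p = 0.67), but stood at 15.5 and 1.73 RPKM at E10.5. Impact was the 1 member higher, at 33.00 and 30.96 RPKM at E9.5 and 63.1 and 58.7 RPKM at E12.5 (difference 0.91, SE 0.16, limma adjusted p = 0.00154). RPKM do not separate the parental alleles.

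Immediate early and stress genes, which respond within minutes to handling, were higher in 12 of 22 tested members and lower in 2. The shares over all tested genes were 13.3% and 13.9%, and the median of the list was 1.26. Only 6 of the 12 and neither of the 2 kept the call in each alternative. Jund rose from 8.5 and 6.63 RPKM at E9.5 to 64.4 and 63.2 RPKM at E12.5. The phosphatase gene Dusp1 had 31.6 and 35.1 RPKM at E9.5 and 180.2 and 208 RPKM at E12.5. Both were higher in each E12.5 library than in any E9.5 library. Fos rose from 86.5 and 117 RPKM at E9.5 to 481 and 525 RPKM at E12.5, and was a difference of 2.31 (SE 0.33, limma adjusted p = 0.000295), a call that ended with a pseudocount of 0.1 (limma adjusted p = 0.07). Egr1 did not pass, at 27.3 and 56.3 RPKM at E9.5 and 45.5 and 46.4 RPKM at E12.5 (limma adjusted p = 0.737). Jun was lower, at 38.1 and 34.5 RPKM at E9.5 and 7.68 and 10.3 RPKM at E12.5. Its call ended without E9.5 replicate 1 or 2 (limma adjusted p = 0.0766 and 0.051) and without E12.5 replicate 1 or 2 (limma adjusted p = 0.109 and 0.0577). The part of handling or dissociation in the differences between the ages was not tested.

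Cholesterol synthesis genes were higher in 13 of 27 tested members and lower in 1, against 13.3% and 13.9% of all tested genes. The median was 0.90. Insig1, a sterol sensor, rose from 16.7 and 14.7 RPKM at E9.5 to 69.5 and 83.3 RPKM at E12.5. The E12.5 libraries both lay above the E9.5 libraries. Msmo1, Sqle and Hmgcs1, which encode enzymes of the route, were higher by 1.41, 1.25 and 1.05. Only 5 of the 13 kept the call in each alternative. The master regulator gene Srebf2 had 8.12 and 35.1 RPKM at E9.5 and 65.2 and 65.9 RPKM at E12.5, a difference of 1.87 that was 0.88 without E9.5 replicate 1 and 2.87 without replicate 2, and its call ended with the 4 libraries alone (limma adjusted p = 0.109).

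Of the survival and death genes of the BCL2 family and its partners 4 of 17 tested members were higher and 1 lower, a share close to the 27.2% of all tested genes that were called in either direction. The death effector gene Bik rose from 4.91 and 6.87 RPKM at E9.5 to 28.02 and 27.3 RPKM at E12.5. Bid had 40.4 and 81.1 RPKM at E9.5 and 187 and 188 RPKM at E12.5. Both were higher, by 2.07 (SE 0.39) and 1.69 (SE 0.27, limma adjusted p = 0.00202 and 0.000589). Bok, a relative, was lower, at 35.3 and 28.02 RPKM at E9.5 and 8.8 and 8.15 RPKM at E12.5. Bax did not pass, at 253 and 201 RPKM at E9.5 and 219 and 217 RPKM at E12.5 (limma adjusted p = 0.858). Of the antigen processing and interferon list 4 of 20 tested members were higher and 3 lower, against 13.3% and 13.9% of all tested genes. Psmb10, a subunit of the immunoproteasome, was the 1 call that held in each alternative. It was lower, at 90.4 and 114 RPKM at E9.5 and 20.5 and 23.8 RPKM at E12.5.

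Markers of other cells differed between the replicates of an age as well as between ages. At E12.5, erythroid transcripts were mainly those of replicate 1: summed over 14 genes they reached 451 RPKM there and 5.06 RPKM in replicate 2. Hbz, an embryonic globin, had 0 and 2.67 RPKM at E9.5 and 226 and 1.08 RPKM at E12.5 and did not pass (limma adjusted p = 0.0925), except without E12.5 replicate 2 (limma adjusted p = 8.16e-05). The globins are near-identical copies and uncertain. Of the gonadal somatic markers Foxl2 was listed at 0 in all 4 libraries, and in the E12.5 libraries Wt1 was at 0.988 and 0.648 RPKM and Nr5a1 at 0.229 and 1.15 RPKM. Amh was listed at 0 in both E12.5 libraries. Of that list 9 members were tested, 1 higher and 3 lower, against 13.3% and 13.9% of all tested genes. Lhx9, of the early gonad, was the 1 higher, at 1.99 and 1.43 RPKM at E9.5 and 6.79 and 6.16 RPKM at E12.5, and its call ended without E12.5 replicate 1 (limma adjusted p = 0.0525). The macrophage genes Ptprc, C1qa, C1qb and C1qc were listed at 0 in all 4 libraries.

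The Y-linked genes Eif2s3y and Kdm5d differed between the E9.5 libraries. The Y-linked gene Eif2s3y was at 16.4 and 122 RPKM at E9.5 and 33.4 and 30.01 at E12.5, and Kdm5d was at 0.551 and 7.11 RPKM at E9.5 and 2.08 and 2.58 RPKM at E12.5. Both were lower in replicate 1 than in replicate 2 at E9.5 and similar between the E12.5 replicates. Of the sex-linked list 4 members were tested, 1 higher and none lower, against 13.3% and 13.9% of all tested genes. The 1 higher was Usp9y, with a difference of 1.27 that was the same without E9.5 replicate 1. Its call ended with quantile normalization (limma adjusted p = 0.1). The share of male and female embryos behind each library is not labelled, and its part in the differences between the ages was not tested.

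The E10.5 and E11.5 libraries placed the changes within the window. For each called gene, the share of the E9.5 to E12.5 difference reached at these ages was computed on the log2 scale. Genes lower at E12.5 had mostly gone down by E10.5: their median share was 82.6% at E10.5 and 94.5% at E11.5. Genes higher at E12.5 lagged, with medians of 36.7% and 68.4%. Past midway at E10.5 were 1257 of 1732 lower genes (72.6%) and 660 of 1653 higher genes (39.9%). Since the end points are the libraries that made the calls, these shares are a description.

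**Figure D5:**
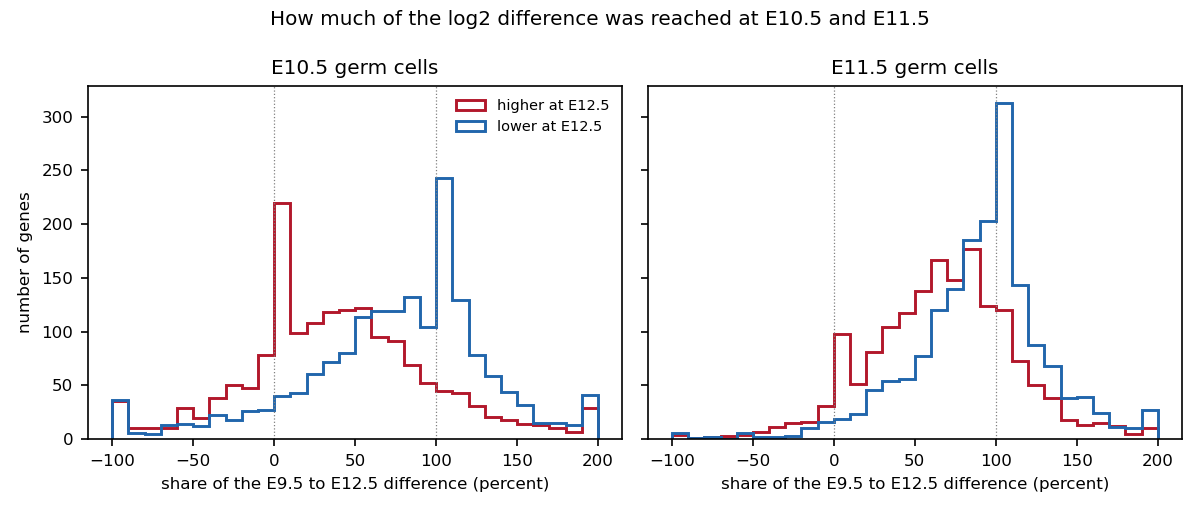
Number of genes by the share of the log2 difference between E9.5 and E12.5 that was reached at E10.5 (left) and E11.5 (right), for genes higher (red) and lower (blue) at E12.5, with values beyond the axis placed in the end bins. Lower genes gather near 100% at E10.5 already, with a median of 82.6%, and higher genes spread from 0 upwards, with a median of 36.7%.

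Depth differed along the window and can shift such shares. The E10.5 and E11.5 libraries were shallower, as given above. At E10.5, 11.3% and 11.7% of tested genes were listed at 0, against 2.75% to 4.89% in the 4 libraries compared. At E11.5, with a depth similar to E10.5, the share was 6.24% and 6.81%. Among genes that averaged 20 RPKM or more at E9.5 or E12.5, a limit chosen after seeing the data, 62.4% of 864 lower genes and 47.2% of 932 higher genes were past midway at E10.5. At E11.5 the shares were 81% and 69.1%. The gap at E10.5 thus narrowed but kept its direction.

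Named genes gave examples of each course. Etv2 and Kdr were listed at 0 in both E10.5 libraries, and Gja1 was at 0.454 and 0.0473 RPKM. Crabp1 was still high, at 315 and 271 RPKM at E10.5 and 78.9 and 67.7 RPKM at E11.5. Among the rises, Nodal had reached 84.7% of its difference at E10.5, Tex19.1 44.03%, Dazl 38.1% and Stk31 36.4%. Mael and Sycp3 were listed at 0 in both E10.5 libraries. Msx1 was lowest before the last age, with 2.36 and 1.3 RPKM at E11.5 before 11.7 and 18.5 RPKM at E12.5.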

How the data were processed

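RNA-seq of Prdm14-Venus rat embryos was used as deposited: the authors' table gives RPKM per gene for 18 libraries and no counts. RNA was extracted with PicoPure and amplified with SMART-Seq v4, per the labels' protocols. The submitters' processing notes name TopHat2 2.1.0 and Cufflinks 2.2.1 together with cutadapt 1.14, bcl2fastq 2.18.0.12 and the rat build rn6, but state neither roles nor steps. The annotation release, strand and treatment of multiply mapped reads were not given in the sources used here. Values of near-identical copies and overlapping genes are therefore uncertain.

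Libraries were grouped by the age and cell type in the labels. Genes with at least 1 RPKM in at least 2 of the 4 libraries compared were tested on log2(RPKM + 1) with limma 3.58.1 (R 4.3.3), a moderated linear model with a trended prior over all 18 libraries in 10 groups, with Benjamini-Hochberg adjustment over the 12432 genes. The spread is thus pooled over groups. Differences are E12.5 minus E9.5 on that scale, and understate the change of genes near 0. The 13 alternatives were another pseudocount, 2 other filters, 2 scalings, 2 smaller sets of libraries, library weights, a replicate block and leaving out each library; 1 more, a higher level for the timing, was added after seeing the data. In simulated data (12432 genes) each gene had the same normal spread in all groups. Changes were placed only in genes averaging above 2 on the log2 scale. There 31% of 100 changes of 1 and 74% of 100 changes of 2 on the log2 scale were recovered, with 8 false calls. The wider spread at E9.5 was not simulated, so these rates may not hold for the real comparison.

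Genes were named by a rule: 12 germ cell and pluripotency genes; the 12 largest rises and 12 largest falls that also passed in the 4 libraries alone, without overlap; and in each list its 3 top rises and 3 top falls plus the most abundant member that did not pass. Further members were named after their values were seen. The members and lists were chosen with earlier results of these data known. Promoters come from a RefSeq table of GRCr8, matched by symbol; no coordinates of rn6 were used. The depth of the libraries is relative, from the ratios of low values, and gives no counting interval.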

Additional observations from a re-analysis of the deposited data

How the results depend on the processing

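The 4 libraries alone gave 1082 higher and 1147 lower genes, of which 1002 and 1093 were among the 1653 and 1732. Leaving out 1 library gave 876 to 1647 higher and 1053 to 1504 lower genes, and a lone library was then assumed to vary like the other groups. In the other 8 alternatives the counts stayed within 1.5 times, from 1224 to 1819 higher and 1273 to 1823 lower. No named gene with a call changed direction in any of the 13 alternatives. Small differences of genes without a call could change sign. Of the 164 tested named genes, 119 had the same result, called or not called, in each alternative in which they were tested. With the replicate number as a block, 1588 genes were higher and 1667 lower, 1567 and 1639 of them shared with the fit without it, and 1 named call ended (Sc5d, limma adjusted p = 0.0574). The numbers do not pair the libraries: the correlation of same-numbered deviations from the group means was -0.06 between E9.5 and E12.5. The causes of these changes were not tested, apart from the fewer samples left by a smaller set. With 2 libraries per age and an equal spread at each age, a change of 1 on the log2 scale was recovered in 31% of simulated cases. Depth is known only as a ratio between libraries.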
